A study of Mus musculus with 10 samples.

Results

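The laminins, integrins and basement membrane genes of the mouse kidney were followed across 3 genotypes at postnatal day 21. Members were chosen by name alone: every gene named as an integrin alpha or beta chain (Itga, Itgb), every laminin chain (Lama, Lamb, Lamc), the nidogens Nid1 and Nid2, perlecan (Hspg2), agrin (Agrn), nephronectin (Npnt), pikachurin (Egflam) and the Fraser complex genes Fras1, Frem1 and Frem2. The rule found 47 of the 30431 rows, among 23276 rows with a gene name. The letters of the rule also took in Itgb1bp2, which codes for melusin, a cytoplasmic protein that binds integrin tails and is no integrin. Of the 47 members, 45 averaged at least 1 CPM (reads of the gene relative to all mapped reads of a library, on a common scale). The other two, Itgb1bp2 and Itgad, averaged less.

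Total RNA of whole kidneys was sequenced from 10 mice. DM mice (n = 3) carried Pkhd1Cre with the floxed Pkd2 F/F alleles and the miR-21null allele. SM mice (n = 3) carried Pkhd1Cre and Pkd2 F/F, and WT mice (n = 4) were wild-type. No group had the Cre without the Pkd2 deletion, and none had the miR-21null allele without it. Pkd2 codes for polycystin-2, whose loss from tubule cells makes cysts, and miR-21 is a microRNA. Pkhd1 is a gene of the collecting duct and neighbouring tubule epithelium, so the Cre acts in part of the cells of a kidney whose other cells were sequenced along with them. For the miR-21null allele the labels name no Cre. The labels state neither sex nor strain.

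A basement membrane is the thin sheet of matrix under each epithelium and around each vessel. Laminins, trimers of an alpha, a beta and a gamma chain, form its cell-facing network, type IV collagen forms another, and nidogens, perlecan and agrin join or fill these networks. Integrins, pairs of an alpha and a beta chain in the cell membrane, hold cells to this matrix and signal from it, and one family of beta chains is instead made by leukocytes, which use it to bind other cells. In the developing kidney nephronectin and its receptor, of the chains Itga8 and Itgb1, are needed for the ureteric bud to grow, and the Fraser complex holds nephronectin in the basement membrane.

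Every fold change and adjusted p below is that of the authors' deposited tables, which compare SM with WT, DM with WT and DM with SM by edgeR's likelihood ratio test and adjust each over all 30431 rows. The tables hold no value per library, so no spread between animals can be shown and sequencing depth is unknown. The standard error given after each log2 fold change is the size that its likelihood ratio implies. The level of a gene in a genotype, in CPM, was rebuilt from the deposited average and fold changes, and is given per kilobase of exon wherever genes are compared with each other. An adjusted p below 0.05 is called passing. In the deposited tables Pkd2 itself stood at 170 CPM in DM, 180 CPM in SM and 239 CPM in WT kidneys, with log2 fold changes of -0.49 ± 0.20 in DM (adjusted p = 0.0838) and -0.41 ± 0.20 in SM (adjusted p = 0.179), so its lower level did not pass in the RNA of the whole kidney. The Mir21 row lay at the lowest level of the tables in all 3 genotypes and checks nothing.

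More of these genes were higher in the cystic kidneys than of all genes measured. In DM against WT, 17 of 47 members (36.2%) were higher and 1 was lower, against 7.55% higher and 5.92% lower of all rows. In SM against WT, 20 members (42.6%) were higher and 1 was lower, against 7.87% higher and 6.09% lower of all rows. Among rows averaging at least 1 CPM the background was 11.3% higher and 8.53% lower for DM, and 12.2% higher and 9.47% lower for SM. The median deposited log2 fold change of the members was 0.52 in DM and 0.60 in SM, beside a median of 0 over all rows in each. Of the members, 16 passed in the deposited tables for both comparisons, 2 for DM alone (Itga5 and Itgal) and 5 for SM alone (Lama4, Lamb3, Lamc1, Nid1 and Itga9), and 24 passed in neither. The DM and SM comparisons share the same WT kidneys, so these counts are not independent of each other. In whole kidneys, more cells of a type and more RNA per cell cannot be told apart.

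**Figure D1:**
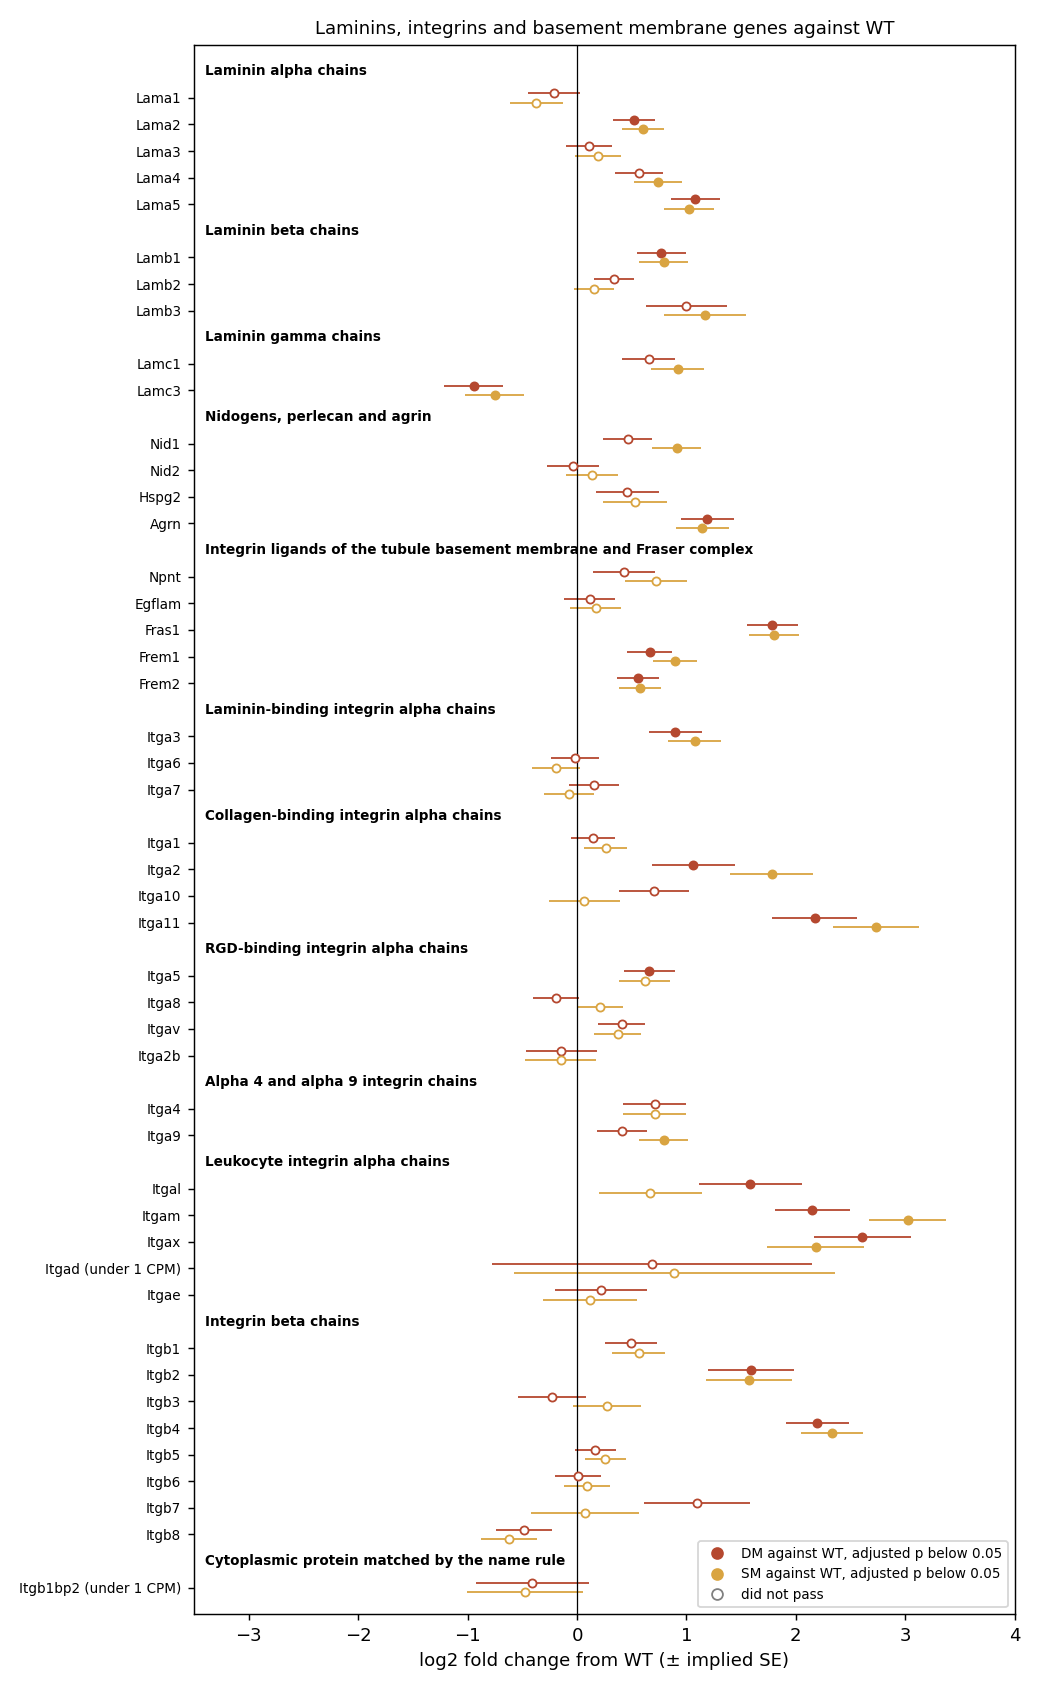
Deposited log2 fold changes of 46 of the 47 members against WT, with bars of 1 implied standard error, grouped by role. Upper points are DM and lower points SM, and filled points passed. Lamc3 is the one gene with filled points left of 0, and Itgam in SM lies farthest to the right at 3.02.

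The laminin chains differed from gene to gene. Lamb3, a beta chain known from the laminin of hemidesmosomes, the rivets that fix epithelia to their basement membrane, stood at 28.4 CPM in DM, 31.9 CPM in SM and 14.2 CPM in WT kidneys. Its deposited log2 fold change was 1.0 ± 0.37 in DM, which did not pass (adjusted p = 0.0535), and 1.17 ± 0.37 in SM, which did (adjusted p = 0.0173). Lama3, an alpha chain that joins it, had deposited values of 0.11 ± 0.21 in DM and 0.19 ± 0.21 in SM and passed in neither. Per kilobase of exon, Lamb3 reached 4.30 CPM in DM, 4.82 CPM in SM and 2.15 CPM in WT kidneys. Lama3 lay at 2.32, 2.46 and 2.15 CPM per kilobase in DM, SM and WT kidneys, so the 2 chains had like levels in WT.

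Of the chains of the laminins of adult tubule and glomerular basement membranes, Lama5 and Lamb1 were higher in both genotypes and Lamc1 in SM. Lama5, their alpha chain, stood at 458 CPM in DM, 440 CPM in SM and 216 CPM in WT kidneys, with deposited log2 fold changes of 1.08 ± 0.23 in DM (adjusted p = 5.95e-05) and 1.02 ± 0.23 in SM (adjusted p = 1.54e-04). Lamb1, the beta chain of tubule basement membranes, was higher by a deposited log2 of 0.77 ± 0.22 in DM (adjusted p = 0.00717) and 0.79 ± 0.22 in SM (adjusted p = 0.00505). Lamb2, the beta chain of the mature glomerular basement membrane, had deposited values of 0.34 ± 0.18 in DM and 0.16 ± 0.18 in SM and did not pass. Lamc1, the gamma chain of most laminins, had a deposited log2 fold change of 0.65 ± 0.24 in DM (adjusted p = 0.0533) and rose by 0.92 ± 0.24 in SM (adjusted p = 0.00248). Per kilobase these 3 partners lay close to each other in WT kidneys, with Lama5 at 19.0 CPM, Lamb1 at 26.5 CPM and Lamc1 at 24.0 CPM. In DM kidneys they lay at 40.2, 45.3 and 37.7 CPM per kilobase in the same order of genes, and in SM kidneys at 38.6, 46.0 and 45.3.

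Lama1, Lama2, Lama4 and Lamc3 had lower levels than these partners. Lama2 and Lama4, alpha chains known from muscle and mesenchyme and from vessels, were each below 4 CPM per kilobase. Lama2 had a deposited log2 fold change of 0.52 ± 0.19 in DM (adjusted p = 0.0481) and 0.60 ± 0.19 in SM (adjusted p = 0.0168). For Lama4 the deposited values were 0.57 ± 0.22 in DM, which did not pass (adjusted p = 0.0618), and 0.74 ± 0.22 in SM (adjusted p = 0.00787). Lama1, the alpha chain of the forming tubule, had -0.21 ± 0.24 in DM and -0.37 ± 0.24 in SM in the deposited tables and did not pass. Lamc3, the gamma3 chain, was the one member that was lower. It stood at 12.6 CPM in DM, 14.4 CPM in SM and 24.3 CPM in WT kidneys, with deposited log2 fold changes of -0.95 ± 0.27 in DM (adjusted p = 0.00596) and -0.75 ± 0.27 in SM (adjusted p = 0.0387). In the mm10 build Lamc3 lies at chr2:31887291-31946539.

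**Figure D2:**
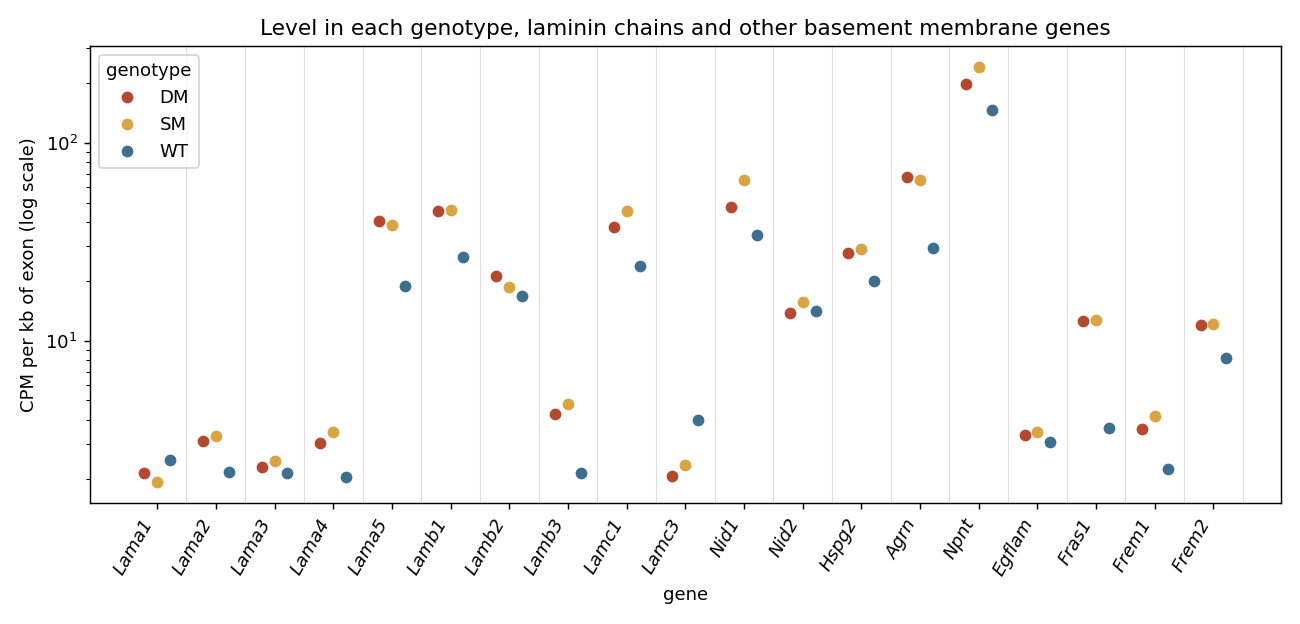
Rebuilt level, in CPM per kilobase of exon on a log scale, of laminin chains and other basement membrane members in DM, SM and WT kidneys, with no error bars since the tables hold no library values. Npnt has the highest level in each genotype, and for Lamc3 the WT point lies above the DM and SM points.

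Among the linkers and proteoglycans, agrin showed the largest change. Agrn, a heparan sulfate proteoglycan of the glomerular and tubule basement membranes, stood at 622 CPM in DM, 603 CPM in SM and 273 CPM in WT kidneys. Its deposited log2 fold changes were 1.19 ± 0.24 in DM (adjusted p = 4.02e-05) and 1.15 ± 0.24 in SM (adjusted p = 7.83e-05). Nid1, the linker between laminin and type IV collagen, stood at 329 CPM in DM, 449 CPM in SM and 239 CPM in WT kidneys. It passed in SM, with a deposited log2 fold change of 0.91 ± 0.22 (adjusted p = 9.61e-04), and not in DM, with 0.46 ± 0.23 (adjusted p = 0.182). The deposited difference of DM from SM for Nid1 was -0.45 ± 0.24 (unadjusted p = 0.0657, adjusted p = 1), so the lower value in DM did not pass. Perlecan, Hspg2, had deposited log2 fold changes of 0.46 ± 0.29 in DM and 0.53 ± 0.29 in SM, and Nid2 of -0.03 ± 0.24 in DM and 0.14 ± 0.24 in SM, and neither gene passed.

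All 3 Fraser complex genes rose in both genotypes. Fras1, a very large protein of the epithelial side of the basement membrane, stood at 223 CPM in DM, 225 CPM in SM and 64.6 CPM in WT kidneys. In the deposited tables its log2 fold changes were 1.79 ± 0.23 in DM (adjusted p = 2.63e-12) and 1.8 ± 0.23 in SM (adjusted p = 1.27e-12). Frem1 and Frem2, its partners, need Fras1 to stay in the basement membrane in mice. Frem1 was higher by a deposited log2 of 0.66 ± 0.20 in DM (adjusted p = 0.0112) and 0.89 ± 0.20 in SM (adjusted p = 2.34e-04). Frem2 was higher by 0.55 ± 0.19 in DM (adjusted p = 0.0344) and 0.57 ± 0.19 in SM (adjusted p = 0.026). In WT kidneys Frem2 had the highest level of the 3 genes per kilobase, at 8.19 CPM, with Fras1 at 3.65 CPM. In DM kidneys Fras1 stood at 12.6 and Frem2 at 12.03 CPM per kilobase, and in SM kidneys Fras1 stood at 12.7 and Frem2 at 12.2. Npnt, the ligand held by the complex, had the highest level of all members per kilobase, at 198 CPM in DM, 242.7 CPM in SM and 147 CPM in WT kidneys. Its deposited log2 fold changes of 0.43 ± 0.28 in DM and 0.72 ± 0.28 in SM did not pass (adjusted p = 0.393 in DM and 0.0667 in SM). Itga8, its receptor chain, had -0.19 ± 0.21 in DM and 0.21 ± 0.21 in SM. Egflam, a dystroglycan ligand known from the mouse retina, had 0.12 ± 0.23 in DM and 0.17 ± 0.23 in SM, and passed in neither deposited table.

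Markers of kidney cell types also differed from WT, some lists higher and others lower. Of 8 proximal tubule markers 7 were lower in each deposited comparison with WT, and their summed level was 5201 CPM in DM, 4956 CPM in SM and 12048 CPM in WT kidneys. Of 7 markers of collecting duct principal cells 3 were higher in DM and 5 in SM, with summed levels of 1167 CPM in DM, 1303 CPM in SM and 858 CPM in WT kidneys. Aqp4 made much of that rise, at 183 CPM in DM, 246 CPM in SM and 74.2 CPM in WT kidneys. So did Hsd11b2, at 272, 350 and 151 CPM in the same order. The water channels Aqp2 and Aqp3 had deposited log2 fold changes of -0.06 and -0.11 in DM. In SM they had -0.28 and -0.27, and they passed in neither. Of 10 markers of fibroblasts and mural cells 3 were higher in DM and 5 in SM, with sums of 1297, 1796 and 735 CPM in DM, SM and WT kidneys. Acta2 and Tagln, genes of smooth muscle and myofibroblasts, made much of that rise, with Acta2 at 335 CPM in DM, 508 CPM in SM and 93.7 CPM in WT kidneys. Pdgfra, Pdgfrb and Myh11 had deposited log2 fold changes of -0.22, -0.22 and -0.36 in DM. In SM they had 0.21, 0.25 and 0.50, and they passed in neither. Podocyte markers went the other way, with 3 of 7 lower in each comparison and sums of 436 CPM in DM, 461 CPM in SM and 662 CPM in WT kidneys. Of 8 endothelial markers 3 were lower in DM and none passed in SM, with sums of 711, 929 and 971 CPM in DM, SM and WT kidneys. The part of these shifts in the changes of laminins, Fraser complex genes and integrins was not tested.

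Among the integrins that bind laminin, Itgb4 and Itga3 were higher in both genotypes. Itgb4, the hemidesmosome beta chain that pairs with Itga6 alone, stood at 52.9 CPM in DM, 58.1 CPM in SM and 11.5 CPM in WT kidneys, with deposited log2 fold changes of 2.20 ± 0.28 in DM (adjusted p = 2.78e-12) and 2.33 ± 0.29 in SM (adjusted p = 8.54e-14). Its partner Itga6 had deposited values of -0.02 ± 0.22 in DM and -0.19 ± 0.22 in SM and did not pass. Per kilobase Itga6 stayed above Itgb4, at 23.7 CPM against 7.54 CPM in DM, 21.1 CPM against 8.28 CPM in SM, and 24.0 CPM against 1.64 CPM in WT kidneys. Itga3, which pairs with Itgb1 as the main receptor of tubule and podocyte for the laminins of the Lama5 and Lama3 chains, stood at 175 CPM in DM, 198 CPM in SM and 94.0 CPM in WT kidneys. It was higher by a deposited log2 of 0.90 ± 0.24 in DM (adjusted p = 0.00342) and 1.08 ± 0.24 in SM (adjusted p = 2.40e-04). Itgb1, the common beta chain and the second highest member per kilobase, had deposited log2 fold changes of 0.49 ± 0.24 in DM (adjusted p = 0.183) and 0.56 ± 0.24 in SM (adjusted p = 0.106). Itga7, the laminin receptor of muscle, had 0.16 ± 0.23 in DM and -0.07 ± 0.23 in SM and did not pass.

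Of the 4 integrin chains that bind collagen, 2 were higher against WT in each genotype. Itga11, a collagen receptor of fibroblasts, stood at 2.26 CPM in DM, 3.35 CPM in SM and 0.503 CPM in WT kidneys. Its deposited log2 fold changes were 2.17 ± 0.39 in DM (adjusted p = 1.88e-06) and 2.73 ± 0.40 in SM (adjusted p = 5.90e-10), at a low level in all 3 genotypes. Itga2, a collagen receptor of epithelia and platelets, stood at 10.7 CPM in DM, 17.6 CPM in SM and 5.14 CPM in WT kidneys. It had deposited log2 fold changes of 1.06 ± 0.38 in DM (adjusted p = 0.0403) and 1.78 ± 0.38 in SM (adjusted p = 9.30e-05). Itga1, the most abundant of the 4 chains at 11.1 CPM per kilobase in DM, 12.04 in SM and 10.05 in WT kidneys, had deposited log2 fold changes of 0.15 ± 0.20 in DM and 0.26 ± 0.20 in SM and did not pass. Itga10, a collagen receptor of cartilage, had 0.71 ± 0.32 in DM and 0.07 ± 0.33 in SM and did not pass, and 33.5% of its exon length lies under another gene model of the same strand, so its value is uncertain.

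The integrins that bind the arginine-glycine-aspartate sequence of fibronectin and its like include 4 alpha chains, of which 1 was higher in DM and none passed in SM. Itga5, the fibronectin receptor, was higher in DM by a deposited log2 of 0.66 ± 0.23 (adjusted p = 0.0367), with 0.62 ± 0.23 in SM just short of passing (adjusted p = 0.0556). Its deposited difference of DM from SM was 0.04 ± 0.25, far less than its error. Itgav, the alpha chain of the vitronectin and latent TGF-beta receptors, had 0.41 ± 0.21 in DM and 0.37 ± 0.21 in SM, and the beta chains Itgb3, Itgb5 and Itgb6 lay between -0.23 and 0.28 in the deposited tables. Itgb8, which pairs with Itgav to activate TGF-beta, had -0.48 ± 0.26 in DM (adjusted p = 0.246) and -0.62 ± 0.26 in SM (adjusted p = 0.0934). Itga2b, the platelet fibrinogen receptor chain, had -0.14 ± 0.32 in DM and -0.15 ± 0.32 in SM. Beside it, 1 of 6 markers of megakaryocytes and platelets, Pf4, was higher in each deposited comparison, while Gp1ba, Gp1bb and Gp6 averaged under 0.25 CPM. Itga9, a receptor of tenascin and of Vcam1, was higher in SM by a deposited log2 of 0.79 ± 0.23 (adjusted p = 0.00608), and had 0.41 ± 0.23 in DM (adjusted p = 0.273). Itga4, the related receptor of Vcam1 and fibronectin, had 0.71 ± 0.29 in each genotype (adjusted p = 0.0854 in DM and 0.0844 in SM).

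Of the 7 integrin chains made by leukocytes, 4 were higher in DM and 3 in SM against WT. Together they summed to 38.8 CPM in DM, 39.4 CPM in SM and 12.1 CPM in WT kidneys. Itgam, the CD11b chain of myeloid cells, stood at 9.63 CPM in DM, 17.6 CPM in SM and 2.17 CPM in WT kidneys, with deposited log2 fold changes of 2.15 ± 0.34 in DM (adjusted p = 3.61e-08) and 3.02 ± 0.35 in SM (adjusted p = 2.02e-15). Of its exon length, 68.7% is shared on the same strand with the gene model Gm49368 in the annotation used here, and no source used here says how reads of shared exons were counted, so its value is uncertain. Itgax, the CD11c chain of dendritic cells and some macrophages, stood at 5.14 CPM in DM, 3.82 CPM in SM and 0.843 CPM in WT kidneys. In the deposited tables it had log2 fold changes of 2.61 ± 0.44 in DM (adjusted p = 3.03e-07) and 2.18 ± 0.44 in SM (adjusted p = 3.09e-05). Itgb2, the CD18 chain that pairs with Itgal, Itgam, Itgax and Itgad, stood at 10.7 CPM in DM, 10.5 CPM in SM and 3.56 CPM in WT kidneys. Its deposited log2 fold changes were 1.59 ± 0.39 in DM (adjusted p = 9.91e-04) and 1.57 ± 0.39 in SM (adjusted p = 0.00117).

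Itgal, the CD11a chain of lymphocytes and other leukocytes, stood at 8.85 CPM in DM, 4.69 CPM in SM and 2.95 CPM in WT kidneys. It passed in DM, with a deposited log2 fold change of 1.59 ± 0.47 (adjusted p = 0.00883), and not in SM, with 0.67 ± 0.47 (adjusted p = 0.449). Itgb7, the beta chain of gut-homing lymphocytes, stood at 3.202 CPM in DM, 1.575 CPM in SM and 1.497 CPM in WT kidneys, and its deposited log2 fold changes of 1.10 ± 0.48 in DM and 0.07 ± 0.49 in SM did not pass (adjusted p = 0.124 in DM and 1 in SM). Itgae, the partner of Itgb7 that binds E-cadherin, had 0.22 ± 0.42 in DM and 0.12 ± 0.43 in SM. Itgad lay near the lowest level of the tables and passed in none. Itgb1bp2, which is no integrin chain, had deposited log2 fold changes of -0.41 ± 0.51 in DM and -0.47 ± 0.53 in SM. Itgal, Itgam, Itgax and Itgad lie on 1 strand of chromosome 7, in mm10 from chr7:127296260-127335138 for Itgal to chr7:128154376-128223816 for Itgad, with Itgam at chr7:128062640-128118491 and Itgax at chr7:128129547-128150657.

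Among markers of the cells that make these chains, the myeloid list rose in both genotypes, and the lymphocyte and neutrophil lists only in part. Of 11 macrophage and myeloid markers 10 were higher in DM and 11 in SM, with summed levels of 572 CPM in DM, 546 CPM in SM and 150 CPM in WT kidneys. Of 10 lymphocyte markers 4 (Cd3g, Cd8b1, Nkg7 and Gzmb) were higher in DM and none passed in SM against WT, with sums of 17.0 CPM in DM, 9.10 CPM in SM and 8.99 CPM in WT kidneys. In DM against SM itself none of the 10 passed in the deposited table, with the smallest adjusted p at 0.121 for Gzmb. Of 6 neutrophil markers 1 (Csf3r) was higher in DM and 3 (S100a8, S100a9 and Csf3r) in SM. Their sums were 7.77, 11.1 and 4.28 CPM in DM, SM and WT kidneys, and Mpo and Elane averaged under 0.25 CPM. The part of these cells in the changes of the leukocyte chains was not tested. Without the 7 leukocyte chains, 13 of the other 40 members were higher in DM and 17 in SM, and 1 was lower in each.

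**Figure D3:**
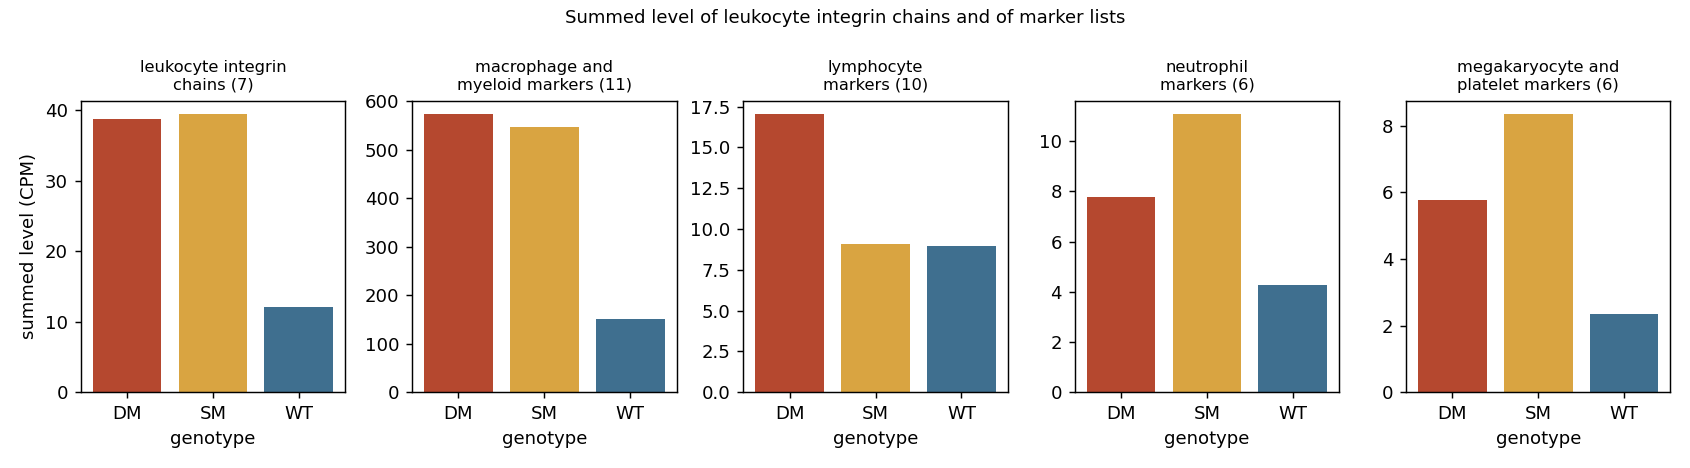
Summed rebuilt level in CPM of the leukocyte integrin chains and of 4 marker lists in DM, SM and WT kidneys, each panel with its own axis from 0. The leukocyte chains and the myeloid markers have like bars in DM and SM, and the lymphocyte sum is 17.0 CPM in DM, though none of its 10 markers passed in DM against SM.

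To show the start of the genes behind the larger changes, the 250 bases before the start site are printed for 6 of the members that passed in SM with a deposited log2 fold change of at least 1, from RefSeq on the GRCm38.p6 build. RefSeq promoter entries were found for 30 members, with 37 starts in all. Itgb4, Fras1, Lamc1 and Itgb2 were among those with none. Capitals mark the words searched on both strands: TGANTCA, as bound by AP-1, GGAATG, as bound by TEAD factors, and GAGGAA, as bound by PU.1 of myeloid cells.
Itgam (chr7:128062390-128062639, plus strand): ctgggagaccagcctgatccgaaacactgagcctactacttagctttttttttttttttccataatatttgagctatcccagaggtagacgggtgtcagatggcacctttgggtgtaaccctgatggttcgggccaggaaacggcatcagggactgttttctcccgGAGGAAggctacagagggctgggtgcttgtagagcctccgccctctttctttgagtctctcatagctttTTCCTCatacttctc
Itgax (chr7:128129300-128129549, plus strand): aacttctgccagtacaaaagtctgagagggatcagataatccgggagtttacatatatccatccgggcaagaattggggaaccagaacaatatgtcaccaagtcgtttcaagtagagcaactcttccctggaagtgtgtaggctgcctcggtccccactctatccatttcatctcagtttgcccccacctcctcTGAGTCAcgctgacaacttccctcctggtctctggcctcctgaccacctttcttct
Itga11 (chr9:62677605-62677854, plus strand): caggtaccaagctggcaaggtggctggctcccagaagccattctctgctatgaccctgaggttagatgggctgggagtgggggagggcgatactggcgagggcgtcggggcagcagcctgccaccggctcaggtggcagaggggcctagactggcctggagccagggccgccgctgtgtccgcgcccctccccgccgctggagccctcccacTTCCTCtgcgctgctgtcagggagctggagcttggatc
Itga2 (chr13:114932101-114932350, minus strand): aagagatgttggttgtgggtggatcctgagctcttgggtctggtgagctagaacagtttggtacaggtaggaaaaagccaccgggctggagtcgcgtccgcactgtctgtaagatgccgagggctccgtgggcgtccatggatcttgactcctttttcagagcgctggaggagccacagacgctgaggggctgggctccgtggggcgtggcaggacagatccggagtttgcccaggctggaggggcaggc
Lama5 (chr2:180225860-180226109, minus strand): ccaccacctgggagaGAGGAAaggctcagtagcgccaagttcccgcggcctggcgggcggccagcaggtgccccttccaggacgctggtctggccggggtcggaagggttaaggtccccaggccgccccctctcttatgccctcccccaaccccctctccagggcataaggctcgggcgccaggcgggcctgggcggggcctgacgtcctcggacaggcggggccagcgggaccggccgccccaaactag
Lamb3 (chr1:193301993-193302242, plus strand): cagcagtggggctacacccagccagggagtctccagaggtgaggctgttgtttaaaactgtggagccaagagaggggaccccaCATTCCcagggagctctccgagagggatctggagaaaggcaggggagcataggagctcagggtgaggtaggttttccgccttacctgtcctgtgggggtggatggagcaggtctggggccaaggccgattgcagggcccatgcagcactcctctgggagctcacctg
In these windows Itgam holds the PU.1 word beginning 84 and 15 bases before the start, Itgax the AP-1 word at 56, Itga11 the PU.1 word at 38, Lama5 the PU.1 word at 235 and Lamb3 the TEAD word at 167, and Itga2 none. Lamb3 has another start, not printed, with the PU.1 word at 237. Agrn and Itga3 also passed in SM at that size and have entries, but are not printed. The windows of Agrn hold none of the words. Itga3 holds the PU.1 word at 68 in a window and none of the words in its other window. The marked words overlap nowhere in these 6 windows. The AP-1 word was in 3 of the 37 member windows (8.11%), of only 2 genes, Itgax and Egflam, since Egflam has a pair of nearly identical windows. It was in 6.75% of all 32851 windows of that length, and in 4.73% of those of genes averaging at least 1 CPM. The TEAD word was in 5 (13.5%), against 12.6% of all windows and 11.05% of those genes' windows, and the PU.1 word in 17 (45.9%), against 23.3% and 22.4%. Itgam was the only leukocyte chain among the genes with the PU.1 word. Of the other leukocyte chains only Itgax and Itgb7 had an entry, so Itgal, Itgad, Itgae and Itgb2 were not searched. The other genes with the word were laminin chains, other integrin chains, Nid1, Frem1 and Frem2, and Frem1 had the word in a pair of windows. A match is a word in a sequence, not a measured binding site.

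The loss of miR-21 in addition to Pkd2 moved none of these genes past the threshold. In DM against SM, 0 of 47 members passed in the authors' edgeR likelihood ratio test, beside 0.0789% of all rows, which is 24 of 30431. At an unadjusted p below 0.05 there was 1 member (2.13%), beside 3.75% of all rows. The members' median deposited log2 difference was -0.07, and 30 of 47 were below 0. For 37 of the 45 members averaging at least 1 CPM the 95% interval of the difference lay within 1 log2 unit of 0, that is, within a doubling or halving. Itgam was the member with an unadjusted p below 0.05, with a deposited log2 difference of -0.87 ± 0.36 (95% interval -1.57 to -0.17, unadjusted p = 0.0153, adjusted p = 1). Itgb7 had the next smallest p, with a deposited difference of 1.02 ± 0.52 (unadjusted p = 0.051, adjusted p = 1), and its interval reached -0.00 to 2.05. Itga2 and Itga11 had deposited differences of -0.72 ± 0.41 and -0.56 ± 0.39, and Itgal of 0.92 ± 0.51, all with intervals across 0. At the other end, Fras1 at -0.02 ± 0.25, Agrn at 0.05 ± 0.26 and Lama5 at 0.06 ± 0.24 had intervals within 0.6 log2 units of 0. The genes that passed in 1 of the 2 comparisons with WT did not pass here, so their difference between the genotypes was not established.

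**Figure D4:**
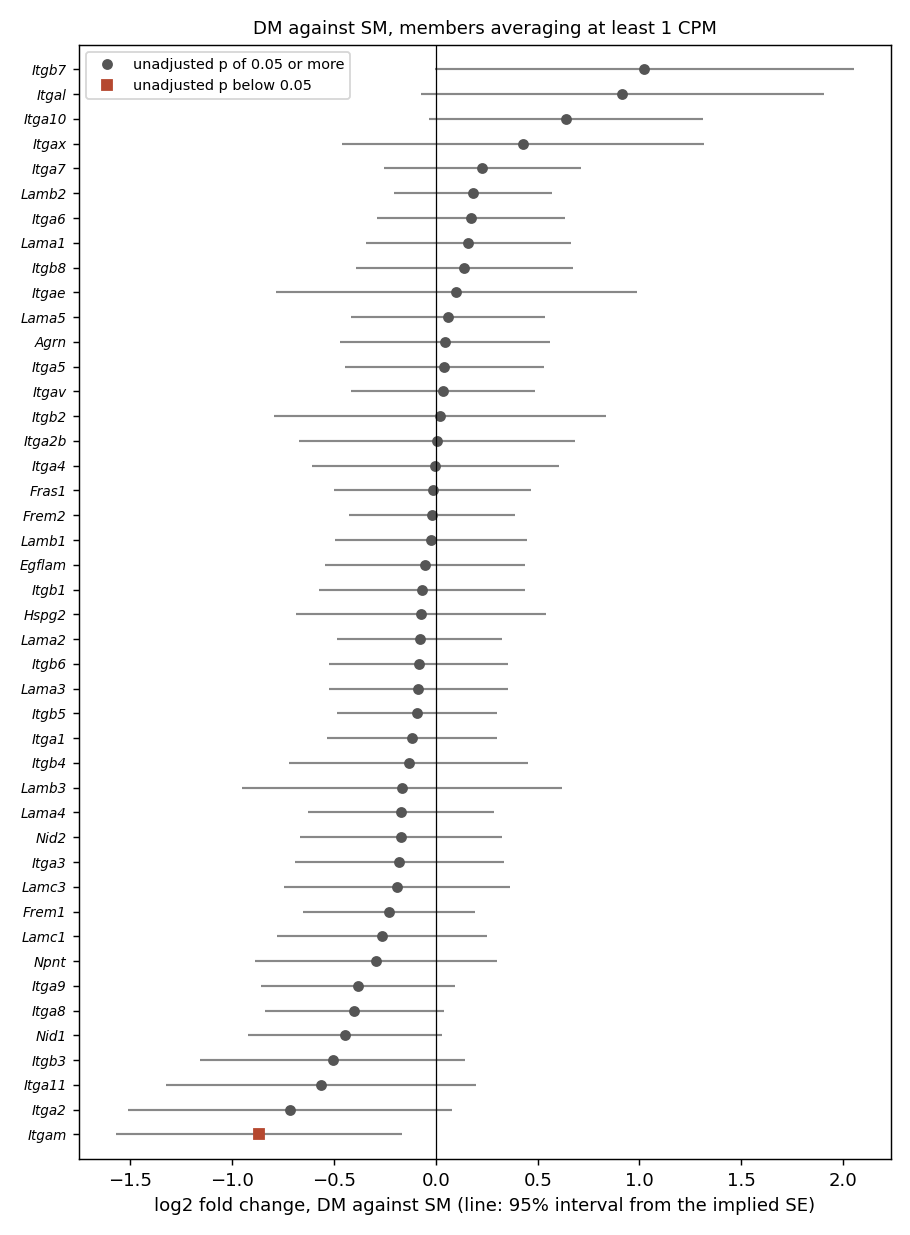
Deposited log2 difference of DM from SM for 44 of the 45 members averaging at least 1 CPM, in order of size, with lines for the 95% interval from the implied standard error. Itgam, the red square, is the one member with an unadjusted p below 0.05, and most points lie within 0.5 of 0.

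MicroRNAs bind messenger RNAs mostly through bases 2 to 8, the seed, so the members were searched for the word ATAAGCT, which pairs with the miR-21 seed. The mature sequence below is from RefSeq on GRCm38.p6, with its seed in capitals, and the sites are the last 14 bases before the word, the word in capitals and the base after it, from the longest 3′ untranslated region of each gene in GENCODE M21 (mm10, the same bases as GRCm38).
mmu-miR-21a-5p (chr11:86584120-86584141, minus strand): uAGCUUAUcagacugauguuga
Itgav (chr2:83803782-83803803, plus strand): ctacagttgacttcATAAGCTa
Itga4 (chr2:79328717-79328738, plus strand): acttagaattttatATAAGCTt
Itga1 (chr13:114958798-114958819, minus strand): gactctgctgtaacATAAGCTt
Itga1 (chr13:114957302-114957323, minus strand): agcagacccctgacATAAGCTa
Itgb8 (chr12:119160060-119160081, minus strand): tctagaaattgcccATAAGCTt
The word was found in 4 of 47 members (8.51%), and in 1040 of 12815 genes averaging at least 1 CPM (8.12%). It is in the messages of Itgav, Itga4, Itga1 and Itgb8, with a pair of sites in Itga1. The site of Itgav and the second of Itga1 are followed by an A, which is known to favour miRNA binding. In the deposited table of DM against SM the log2 differences of the 4 genes were 0.04 ± 0.23 for Itgav, -0.00 ± 0.31 for Itga4, -0.12 ± 0.21 for Itga1 and 0.14 ± 0.27 for Itgb8. Their median was 0.02, beside -0.08 for the 43 members without the word, and none of the 4 passed.

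Genes that work with the members were counted from 3 lists. Beside them, 7.55% of all rows were higher and 5.92% lower in DM, and 7.87% higher and 6.09% lower in SM. Among rows averaging at least 1 CPM the shares were 11.3% and 8.53% in DM, and 12.2% and 9.47% in SM. Of 29 other basement membrane and matrix genes measured, 11 were higher and 1 lower in DM, and 17 were higher and 2 lower in SM. Col17a1, the transmembrane collagen of hemidesmosomes, stood at 1.74 CPM in DM, 1.74 CPM in SM and 0.180 CPM in WT kidneys, with deposited log2 fold changes of 3.27 ± 0.54 in DM (adjusted p = 1.01e-07) and 3.27 ± 0.55 in SM (adjusted p = 1.27e-07). Plec, which codes for plectin, the linker of Itgb4 to keratin filaments, was higher by a deposited log2 of 0.89 ± 0.24 in DM (adjusted p = 0.00261) and 0.98 ± 0.24 in SM (adjusted p = 5.91e-04). Hmcn1, hemicentin, was higher by 1.90 ± 0.25 in DM and 2.15 ± 0.25 in SM in the deposited tables. The type IV collagen chains also differed from gene to gene. Col4a1, of the chain pair found in nearly all basement membranes, had 0.73 ± 0.29 in DM (adjusted p = 0.0839) and rose by 0.95 ± 0.29 in SM (adjusted p = 0.0124). Col4a2, its partner, had 0.67 ± 0.28 in DM (adjusted p = 0.0918) and rose by a deposited log2 of 0.89 ± 0.28 in SM (adjusted p = 0.0126). Col4a6 had 0.57 ± 0.24 in DM and 0.45 ± 0.25 in SM and did not pass. Col4a3, Col4a4 and Col4a5, the chains of the mature glomerular basement membrane, lay between -0.34 and 0.07 in the deposited tables and did not pass. Vwa1, a perlecan-binding protein, had -0.69 ± 0.26 in DM (adjusted p = 0.0613) and was lower in SM with a deposited log2 fold change of -1.07 ± 0.27 (adjusted p = 0.00107). Tinag, the tubulointerstitial nephritis antigen of the proximal tubule basement membrane, was lower, with deposited log2 fold changes of -0.63 ± 0.19 in DM (adjusted p = 0.0108) and -0.63 ± 0.19 in SM (adjusted p = 0.0093).

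Of 30 integrin ligands outside the laminins, 15 were higher and 2 lower in DM, and 18 were higher and 3 lower in SM. Fgg, the fibrinogen gamma chain, was higher by a deposited log2 of 2.69 ± 0.39 in DM (adjusted p = 4.76e-10) and 2.63 ± 0.38 in SM (adjusted p = 1.06e-09). Madcam1, the ligand of the Itga4 and Itgb7 pair, passed with 2.30 ± 0.76 in DM and 2.60 ± 0.77 in SM but stood at 0.268 CPM in DM, 0.331 CPM in SM and 0.0545 CPM in WT kidneys, the last close to the lowest level of the tables. Vcam1 and Icam1, the ligands of the Itga4 and Itgb2 integrins, were higher in both genotypes, Vcam1 by 1.24 ± 0.31 in DM and 0.92 ± 0.31 in SM, and Icam1 by 1.61 ± 0.27 in DM and 1.62 ± 0.27 in SM in the deposited tables. Vtn, vitronectin, made mainly by liver, was lower, with deposited log2 fold changes of -3.31 ± 0.71 in DM (adjusted p = 9.94e-05) and -2.98 ± 0.71 in SM (adjusted p = 5.26e-04). Beside it, 6 of 8 hepatocyte markers were lower in DM and 7 in SM, with sums of 83.6 CPM in DM, 67.5 CPM in SM and 272 CPM in WT kidneys. Fgb, the fibrinogen beta chain, is in both lists and went the other way. Its deposited log2 fold changes of 1.03 ± 0.57 in DM and 1.42 ± 0.57 in SM did not pass. Ttr and Fgb made up most of the DM and SM sums, and the median deposited log2 fold change of the 8 markers was -5.42 in DM and -6.48 in SM, with Alb at 1.03 CPM in DM, 0.328 CPM in SM and 132 CPM in WT kidneys. Their part in the value of Vtn was not tested. Ecm1 was lower, with deposited log2 fold changes of -1.75 ± 0.23 in DM (adjusted p = 8.70e-12) and -1.34 ± 0.23 in SM (adjusted p = 2.57e-07).

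Of 34 cytoplasmic partners of integrins measured, 8 were higher and 2 lower in DM, and 9 were higher and 2 lower in SM. The 2 lower genes lie near the share of all rows that were lower (5.92% in DM and 6.09% in SM) and do not set the list apart. The median deposited log2 fold change of the 34 genes was 0.15 in DM and 0.28 in SM. Fermt3, the kindlin of blood cells, was higher by a deposited log2 of 1.73 ± 0.33 in DM (adjusted p = 5.15e-06) and 1.72 ± 0.33 in SM (adjusted p = 5.94e-06). Fermt1 and Fermt2, the kindlins of epithelium and of most other cells, lay between 0.07 and 0.27 and did not pass. Fblim1, a filamin-binding protein of cell-matrix contacts, was higher by 1.30 ± 0.19 in DM (adjusted p = 2.74e-09) and 1.67 ± 0.19 in SM (adjusted p = 3.10e-15). Tln2, the talin next to the more widespread Tln1, was lower, with deposited log2 fold changes of -0.74 ± 0.20 in DM (adjusted p = 0.00365) and -0.63 ± 0.20 in SM (adjusted p = 0.018). Lims2, an adaptor of the integrin-linked kinase, was lower, with deposited values of -0.71 ± 0.19 in DM (adjusted p = 0.00399) and -0.56 ± 0.19 in SM (adjusted p = 0.0326). None of the genes of the 3 lists passed in DM against SM.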

How the data were processed

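Strand-specific libraries of total RNA from 10 kidneys were sequenced (labels' protocols). Among the tools of the authors, per the submitters' processing notes, were TopHat2 2.0.12, featureCounts of Subread 1.4.6 and edgeR 3.2.4, with mm10 as the build. The authors deposited 3 edgeR tables of 30431 rows, of which 7155 carry no gene name, with log2 fold changes, average log2 CPM, likelihood ratios (a score per row), p-values and adjusted p-values. The tables were checked: the average log2 CPM is the same in all 3, and the adjustment runs over all rows. Counts per library were not used here, so no test was refitted, no animal was left out, and the depth and the spread between animals are unknown. No source used here says whether animals shared litters.

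The implied standard error is the absolute log2 fold change over the square root of the likelihood ratio, and the 95% interval is 1.96 such errors to each side. Group levels in CPM were solved from the average CPM and both fold changes, weighting genotypes by their 3, 3 and 4 libraries. They are approximate, and rows near the lowest average log2 CPM of -4.28 carry the offset the authors' edgeR fit adds. Exon lengths and overlaps are from GENCODE release M21 on mm10, matched by symbol for all 47 members. The authors' gene models may differ. Computation used Python 3.11.15, numpy 2.4.6, pandas 2.3.3 and scipy 1.17.1, and the script was tested on simulated data. The values of 1 member are not reported here, and it is in the counts and medians and not in the plots. Values are given for every other member that passed in any comparison, for their trimer or pair partners, and for the 2 smallest p-values in DM against SM. From each partner list up to the 2 largest increases and decreases that passed in SM are named, and Plec, Vcam1, Icam1, the type IV collagen chains, Fermt1 and Fermt2 were added after their values were seen. The members, lists and alternatives were chosen with earlier results of these data known. Hmcn2, Tns2 and Adgre1 matched no row.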

Additional observations from a re-analysis of the deposited data

How the results depend on the processing

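Requiring an absolute log2 fold change of at least 1 beside the adjusted p left 11 members higher and 0 lower in DM against WT (11 that passed) and 12 higher and 0 lower in SM against WT (12 that passed). A stricter adjusted p below 0.01 left 0 members lower in SM against WT, since Lamc3 then no longer passed. The other counts stayed within 1.5 times the reported ones: 12 (DM) and 17 (SM) higher at the stricter threshold, 20 and 22 when p-values were adjusted over rows averaging at least 1 CPM, and 19 and 20 over named rows. Under the adjustment over rows of at least 1 CPM, Lamb3 (adjusted p = 0.0364), Lamc1 (0.0363) and Lama4 (0.0424) passed in DM, and Itga5 (0.0361) and Npnt (0.0438) in SM. Over named rows Lamb3 (0.0496) and Lamc1 (0.0494) passed in DM. Centring on the median moved no call, and no value that passed changed sign under these alternatives. No member passed in DM against SM under any of them. Leaving out each animal and refitting with another tool were not run, and no paired analysis was possible because the tables hold no library values. The median implied error in DM against SM was 0.26. At that error, an observed difference under about 0.5 log2 units (1.96 errors) falls short of an unadjusted p of 0.05 in the likelihood ratio test. Passing by the adjusted p asked for a larger difference relative to its error. Among the lymphocyte markers, Gzmb had a deposited difference of DM from SM of 4.20 ± 1.11. It did not pass in the likelihood ratio test (adjusted p = 0.121). True differences under about 0.5 log2 units, and also larger ones, can thus be missed.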

Other observations

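Some genes share the members' names but are not integrins of the rule. Itgbl1, a secreted protein like the stalk of a beta chain, stood at 2.40 CPM in DM, 2.50 CPM in SM and 0.734 CPM in WT kidneys. In the authors' deposited tables it was higher by a log2 of 1.71 ± 0.44 in DM (adjusted p = 0.00179) and 1.77 ± 0.44 in SM (adjusted p = 0.00122). Itgb2l, a relative of Itgb2, stood at 16.4 CPM in DM, 11.5 CPM in SM and 14.04 CPM in WT kidneys. Its deposited log2 fold changes of 0.22 ± 0.24 in DM and -0.29 ± 0.25 in SM did not pass, unlike those of Itgb2, and its difference of DM from SM was 0.51 ± 0.26 (unadjusted p = 0.0518, adjusted p = 1). Frem3, the relative of the Fraser complex genes, stood at 0.0627 CPM in DM, 0.0540 CPM in SM and 0.105 CPM in WT kidneys, near the lowest level of the tables.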
